A study of Rattus norvegicus with 12 samples.

Results

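The long noncoding RNAs most abundantly sequenced in rat liver were described across a normal diet and a high fat diet, each with and without S-allylmercaptocysteine. They were chosen by level, as the rows of the deposited gene table typed lncRNA or lincRNA whose mean over the 12 libraries was at least 500 deposited counts, with no scaling. This rule held 55 of the 40154 genes and of the 9191 rows of these types, 49 typed lncRNA and 6 typed lincRNA. Because the mean count chose them, their abundance is a description and was not tested. The rule compared no groups, but a row near the limit can pass it through the groups where it is high. LOC102550128 (mean count 552) held 890, 596 and 671 counts in Control and 260, 56 and 405 in Control+SAMC. LOC102546489 (mean count 695) held 392, 978 and 711 in Control and 414, 314 and 297 in Control+SAMC. Differences of such members between groups are not independent of the rule. Just inside the limit were LOC108351251 (mean count 524), LOC102551027 (511) and LOC108353172 (500.8), and just outside it LOC100365289 (477), LOC100912167 (467) and Ndufb1 (465).

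RNA was taken from livers of Sprague Dawley rats, and each of 4 groups had 3 libraries. The Control group received a normal diet, Control+SAMC a normal diet with S-allylmercaptocysteine (SAMC, a sulfur compound of aged garlic), HFD a high fat diet and HFD+SAMC a high fat diet with SAMC. The study addressed fatty liver disease and a role for SAMC through the aryl hydrocarbon receptor, the antioxidant regulator Nrf2 and inflammation. The labels give no dose, duration, age or sex and do not say that the libraries of a group come from separate animals, so p-values measure only the spread between these libraries, which may be technical.

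Long noncoding RNAs are transcripts that are often spliced and polyadenylated like messenger RNA but carry no long reading frame. Some stay in the nucleus and act on chromatin or nuclear bodies, such as Xist, which coats and silences an X chromosome. Others work in the cytoplasm, host small RNAs in their introns or exons, or are by-products of transcription near an active gene, and for most of the rat rows with a LOC number no function is known.

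Only a few of these rows could be tied to a known RNA. Entrez numbers were listed for 49 of the 55, and 30 of these matched the RefSeq gene table of rat (assembly GRCr8), 28 as lncRNA and 2 as protein coding. A symbol other than a LOC number was given for 7: LOC100911498 is Xist, LOC100910827 is Oip5-as1 (also called Cyrano), LOC106631776 is Mtln, LOC103691165 is Fam24al1, LOC103693047 is Rup2l2, LOC100912557 is Atp5mpl, and Gas5 keeps its name. Rup2l2 and Atp5mpl are the 2 that RefSeq holds as protein coding, and Mtln, although typed lncRNA there, is known to make the mitochondrial micropeptide mitoregulin. The label of a noncoding RNA thus did not hold for the 2 protein coding rows, and the 6 Ensembl rows carried no name in the sources used here.

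For 3 members the sequence just around the start of transcription is shown, because Xist is the best known of the set and because LOC102549305 and LOC102546489 had the smallest adjusted p-values for the SAMC effect averaged over diet. These are RefSeq promoters of GRCr8, from 250 bases before to 50 bases after the start, printed 5′ to 3′ on the gene's strand. Capitals mark matches on either strand to CCAAT, to CACGTG (an E-box), to TATAAA, to TGACNNNGC (the core of the antioxidant response element bound by Nrf2) or to GCGTG (the core of the element bound by the aryl hydrocarbon receptor).
Xist (LOC100911498, chrX:72558217-72558516, minus strand): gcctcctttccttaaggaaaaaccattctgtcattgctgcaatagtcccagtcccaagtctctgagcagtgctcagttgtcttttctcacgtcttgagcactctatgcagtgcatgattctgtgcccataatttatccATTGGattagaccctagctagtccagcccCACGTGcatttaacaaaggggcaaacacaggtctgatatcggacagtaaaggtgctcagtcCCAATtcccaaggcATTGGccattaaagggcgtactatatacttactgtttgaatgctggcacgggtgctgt
LOC102549305 (chr1:128785968-128786267, plus strand): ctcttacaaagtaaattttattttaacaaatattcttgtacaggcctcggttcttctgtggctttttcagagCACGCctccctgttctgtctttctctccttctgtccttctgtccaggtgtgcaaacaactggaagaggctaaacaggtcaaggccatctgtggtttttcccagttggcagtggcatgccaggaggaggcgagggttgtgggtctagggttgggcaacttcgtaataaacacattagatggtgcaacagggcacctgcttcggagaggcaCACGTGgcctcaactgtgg
LOC102546489 (chr13:89424743-89425042, plus strand): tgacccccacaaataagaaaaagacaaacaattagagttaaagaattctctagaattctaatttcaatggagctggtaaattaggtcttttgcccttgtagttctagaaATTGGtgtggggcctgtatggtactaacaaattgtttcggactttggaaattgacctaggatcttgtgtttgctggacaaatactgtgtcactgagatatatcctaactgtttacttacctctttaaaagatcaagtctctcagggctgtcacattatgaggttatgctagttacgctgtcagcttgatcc
Of the 55 members, 25 had a promoter entry. GCGTG was found in 8 of these 25 (32%), against 29.7% of all 33469 promoters of the same length, and CCAAT in 9 (36%) against 37.5%. TGACNNNGC was found in 1 of 25, that of LOC108351251, against 12.1% of all promoters. TATAAA was in 5 of 25 against 14.2%, CACGTG in 2, those of Xist and LOC102549305, against 6.42%, and the direct repeat 1 element of nuclear receptors in none, against 0.0538%. CACGTG holds no other of these motifs. Such matches are letters in a window and show no binding.

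A second sequence is shown for its place beside a member. LOC102553272 lies at chr18:60750793-60754364 on the plus strand of the deposited table, and its end is 921 bases before the row of Mir122 on the same strand. The protein coding row LOC502176 (chr18:60729517-60767280, mean count 123) spans both on that strand and may share reads with LOC102553272. The microRNA miR-122 is the most abundant microRNA of hepatocytes and is known for its part in cholesterol and lipid metabolism. Its mature forms are printed from RefSeq (GRCr8, chr18:61028831-61028852 and chr18:61028867-61028885, plus strand), with the seed, bases 2 to 8, in capitals.
rno-miR-122-5p: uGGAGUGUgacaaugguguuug
rno-miR-122-3p: aACGCCAUcaucacacuaa
The Mir122 row itself held 0 counts in all 12 libraries, whose kit was not made for small RNA, so no level of the microRNA can be given. Reads were counted over the same place in the row of Mir3591, a microRNA gene on the opposite strand that spans Mir122, with 116 to 254 counts per library. LOC102553272 held 13.9, 19 and 20.5 CPM (counts scaled to a library of 1e+06, corrected for library composition) in Control replicates 1 to 3. It was at 15.9, 19.3 and 15.1 CPM in Control+SAMC, at 16.3, 9.10 and 19.3 CPM in HFD and at 14.3, 7.71 and 13.1 CPM in HFD+SAMC. The HFD+SAMC libraries lay below every Control+SAMC library, with a log2 fold change of -0.51 ± 0.28 (SE, n = 3 against 3) and an edgeR adjusted p of 0.551. Any link between this RNA and miR-122 was not tested.

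The libraries held 45680738 to 61937544 counts, and the 55 members took a small share of them. That share was 0.286% ± 0.051 (SD, n = 3) in Control, 0.278% ± 0.043 in Control+SAMC, 0.349% ± 0.027 in HFD and 0.292% ± 0.024 in HFD+SAMC. The tissue label held: albumin (Alb) was at 67362 to 273711 CPM and the urea cycle enzyme Cps1 at 1690 to 5750 CPM, while the bile duct keratin Krt19 was at most 5.30 CPM. Fibrinogen Fga was low, at 3378 to 3822 CPM, in HFD replicates 2 and 3, Control replicate 2 and Control+SAMC replicate 1. HFD+SAMC replicate 3 held skeletal muscle RNA, with Acta1 at 440 CPM. The length of 1 gene, RGD1562465, behind its deposited RPKM split the libraries into set 1 (Control and HFD+SAMC) and set 2 (Control+SAMC and HFD). It implied 3377 bases in set 1 and 4432 in set 2, while all other rows matched their listed length in every library. The split rests on this row alone. Every comparison of diet alone or SAMC alone sets a group of one set against a group of the other, so set and group cannot be told apart there.

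The members held 72.2% of all counts in lncRNA and lincRNA rows when the 12 libraries were pooled, and the 2 highest members alone held 48.4% of the members' counts. Means ran from 500.8 to 40664 counts, with 31 members under 1000 and 3 of at least 10000. All 55 passed the filter on low counts, and 53 had at least 100 counts in every library. Of the 9191 rows of these types, 4918 had no count in any library and 1103 were tested.

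Levels can be compared between genes only per length, as RPKM (reads scaled by gene length and library total). LOC103693047 (Rup2l2, chr8:41701654-41702732, minus strand) stood highest at a mean of 2991 RPKM, over a listed length of 254 bases, the shortest of the 55. It was followed by LOC102551949 (chr11:81554941-81558110) at 196, ENSRNOG00000059330.1 (chr1:147422779-147435897) at 137, ENSRNOG00000062158.1 (chr1:221158098-221158792) at 115 and LOC100912557 (Atp5mpl, a small subunit of ATP synthase) at 79.7 RPKM. LOC108349824, Xist, Gas5, LOC108351475 and LOC102554630 made up the other 5 of the first 10, at 69.8, 55.3, 42.0, 36.7 and 34.8 RPKM. By count rather than by length Xist came next to LOC103693047, with a mean of 37409 counts over 12659 bases. Listed lengths of the members ran from 254 to 19118 bases with a median of 2000, and 16 of the 55 lay on chromosome 1 and 2 on chromosome X.

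**Figure D1:**
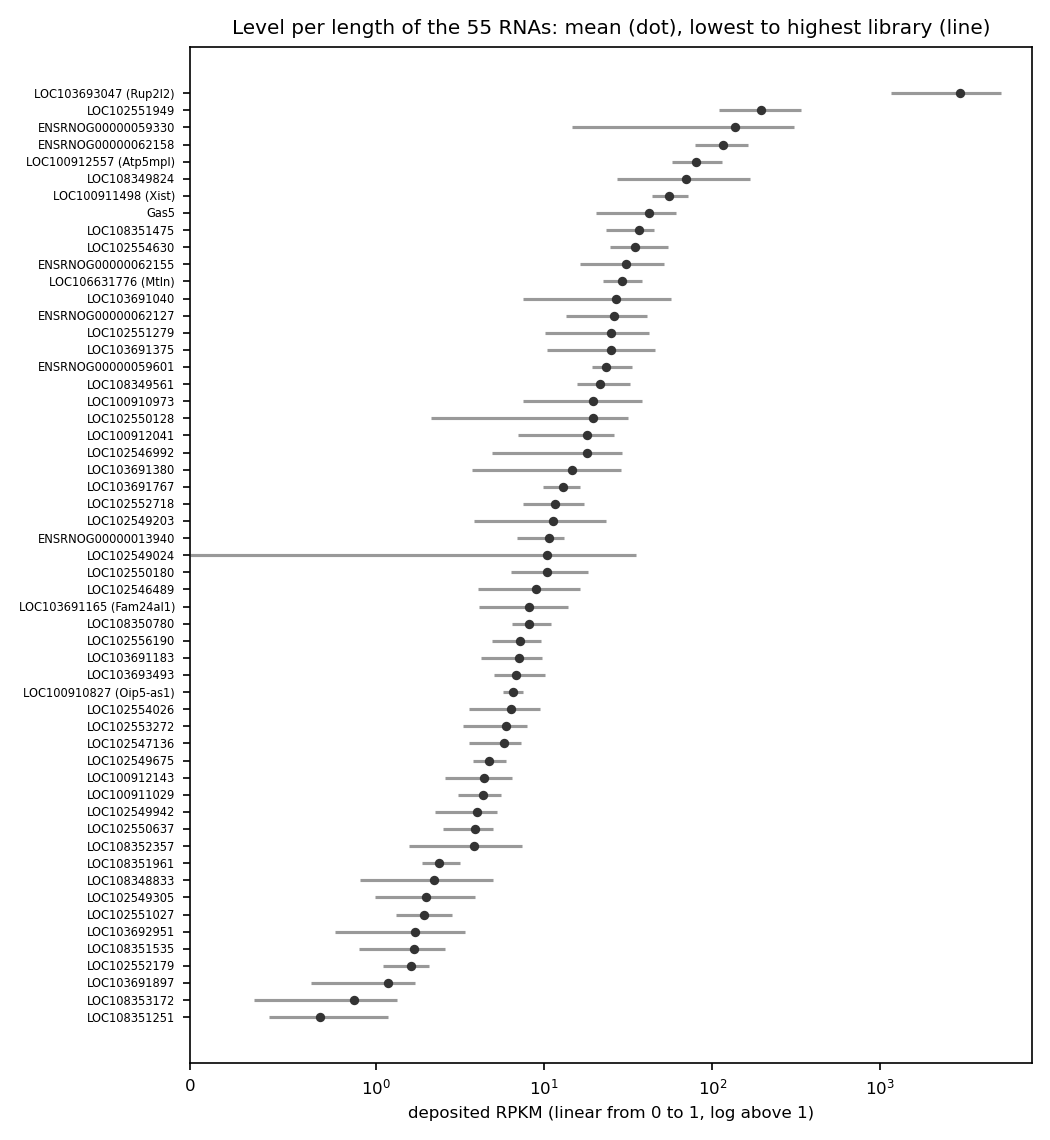
Deposited RPKM of the 55 members, with the mean over the 12 libraries as a dot and the lowest to the highest library as a line, on an axis that is linear from 0 to 1 and log above 1. LOC103693047, at a mean of 2991 RPKM, stands far above LOC102551949, at 196, and the line of LOC102549024 reaches 0.

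LOC103693047 was at 882, 689 and 867 CPM in Control, 621, 322 and 881 in Control+SAMC, 1086, 1122 and 636 in HFD and 802, 580 and 506 in HFD+SAMC. The 4 groups overlapped. Rup2l2 is named after Rup2, a urinary protein of the rat, and reads of near-identical copies may have been split between these rows, so both levels are uncertain.

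Xist was present in all 12 libraries. Its levels were 603, 770 and 618 CPM in Control, 646, 766 and 696 in Control+SAMC, 837, 717 and 872 in HFD and 641, 602 and 612 in HFD+SAMC. The HFD+SAMC libraries lay below all HFD libraries and below all Control+SAMC libraries, and the other groups overlapped. HFD+SAMC against HFD gave a log2 fold change of -0.39 ± 0.15 (SE) with an edgeR adjusted p of 0.388, and HFD against Control 0.29 ± 0.15 with an adjusted p of 0.529. The 26 protein coding rows of chromosome Y held 13 counts in all 12 libraries together. LOC102554630 overlaps Xist on the opposite strand, and its count was 9.11% to 14.7% of that of Xist. Whether its reads were told from those of Xist is unknown, since the strand setting of the counting is not given in the sources used here. It was at 79.7, 70.2 and 71.0 CPM in Control and 80.3, 105 and 96.1 in HFD, a small gap with no overlap, and at 61.2 to 84.1 in the SAMC groups, overlapping Control.

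Gas5 hosts small nucleolar RNAs in its introns and is known to accumulate when cell growth stops. It was at 23.6, 11.0 and 23.8 CPM in Control, 19.3, 20.3 and 27.0 in Control+SAMC, 13.7, 14 and 15.2 in HFD and 13.4, 15.5 and 19.9 in HFD+SAMC. HFD lay below Control+SAMC without overlap, while Control, through its replicate 2 at 11.0 CPM, overlapped both high fat groups. The diet effect averaged over SAMC was -0.45 ± 0.18 (log2, SE) with an unadjusted p of 0.0315 and an edgeR adjusted p of 0.308.

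Oip5-as1, a cytoplasmic RNA known for its pairing to the microRNA miR-7, was the steadiest member, with a coefficient of variation of 8.47% over the 12 libraries. Its levels were 49.6, 54.8 and 54.4 CPM in Control, 46.5, 51.2 and 55.4 in Control+SAMC, 46.0, 42.6 and 55.5 in HFD and 51.4, 48.2 and 47.1 in HFD+SAMC. All groups overlapped, and HFD against Control was -0.14 ± 0.12 (log2, SE). Mtln was nearly as even, at 12 to 14.6 CPM in Control, 11.2 to 12.8 in Control+SAMC, 13.0 to 14.4 in HFD and 9.93 to 14.5 in HFD+SAMC. LOC103691165 (Fam24al1) ranged from 10.8 CPM in Control replicate 1 to 33.7 CPM in HFD+SAMC replicate 3, and its other 10 libraries lay between 15.4 and 23.5 CPM.

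Neighbouring Ensembl rows on the minus strand of chromosome 1 formed a small cluster. ENSRNOG00000062155.1 (221151827 to 221153278), ENSRNOG00000062127.1 (221154561 to 221156910) and ENSRNOG00000062158.1 lie close together. Neither the deposited table nor the RefSeq table names them. ENSRNOG00000062127.1 was at 70.9, 46.6 and 75.3 CPM in Control, 36.7, 82.6 and 41.6 in Control+SAMC, 91.2, 26.7 and 34.6 in HFD and 77.1, 82.8 and 68.8 in HFD+SAMC. The libraries fell near 27 to 47 or near 69 to 91 CPM, the 3 HFD+SAMC libraries all lay in the higher range, the other groups held both, and all groups overlapped. ENSRNOG00000062158.1 varied less, from 50.5 to 110 CPM.

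These rows varied together from library to library. ENSRNOG00000062127.1 and ENSRNOG00000062155.1 had a Pearson r of 0.984 over the 12 libraries (log2 CPM, permutation p = 1e-05, the smallest 100000 resamples can give, adjusted p = 7e-05) and a Spearman rho of 0.979. Leaving out the 2 libraries farthest from the median left r at 0.978, and r was 0.976 within set 1 and 0.982 within set 2. ENSRNOG00000062158.1 was less close to ENSRNOG00000062127.1, with r = 0.808 (permutation p = 0.00123, adjusted 0.00287), 0.472 in set 1 and 0.955 in set 2. Rows this close on 1 strand may be parts of 1 transcript or have separate ends, and the counts do not tell these apart.

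**Figure D2:**
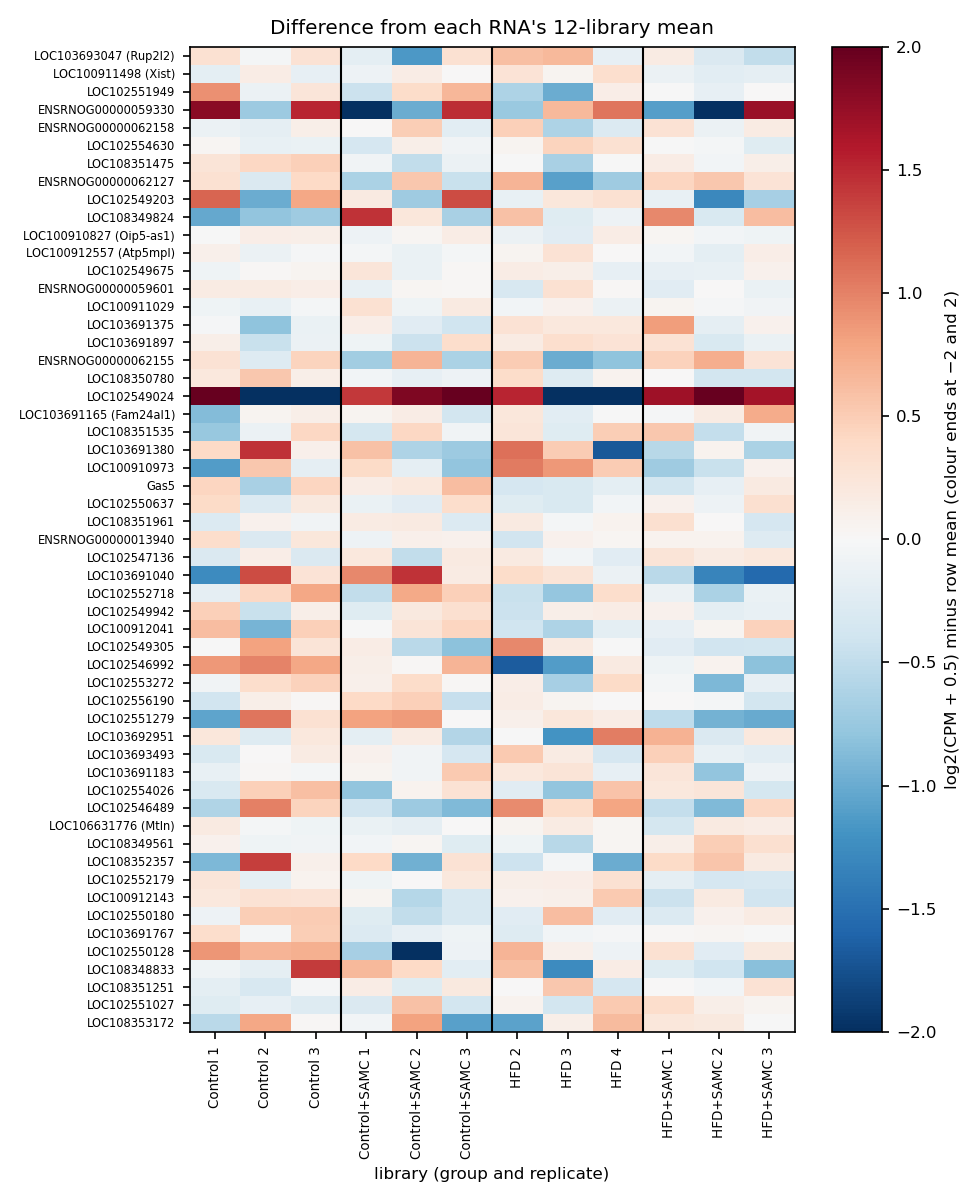
Log2 CPM of the 55 members in each of the 12 libraries, relative to each member's own mean, with libraries in group order. Most rows are pale and vary within groups as much as between them, and LOC102549024 stands out with 4 libraries near 0.

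Variation between libraries was wider among the members than among well expressed coding genes. The median coefficient of variation over the 12 libraries was 26.3% for the 55 members and 15.2% for the 7602 protein coding rows with a mean count of at least 500, given as a description. The highest library was over 5 times the lowest in 10 members and under 2 times the lowest in 20. ENSRNOG00000059330.1 had a coefficient of variation of 82.8%. It was at 336, 57.4 and 277 CPM in Control, 23.2, 47.9 and 268 in Control+SAMC, 56.8, 150 and 202 in HFD and 44.3, 14.6 and 318 in HFD+SAMC, so each group held both low and high libraries. It overlaps Cyp2c7, a steroid and retinoid metabolising cytochrome P450, on the same strand, and reads of that far more abundant gene cannot be told apart from its own.

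The widest variation was that of LOC102549024 (chr4:176559536-176563834, plus strand), at 93.1%. It was at 29.7, 0.0245 and 0.0224 CPM in Control, 19.6, 27.2 and 34.9 in Control+SAMC, 21.2, 0.0154 and 0 in HFD and 23.9, 64.2 and 23.4 in HFD+SAMC. Control replicates 2 and 3 and HFD replicates 3 and 4 held at most 3 counts, while the other 8 libraries held 926 to 4095. All 6 libraries with SAMC were thus high, and of the 6 without it 2 were high and 4 nearly empty. The 4 low libraries come from both sets, and 2 of them, Control replicate 2 and HFD replicate 3, are among the 4 low in Fga. No other row of the table had at most 3 counts in those 4 libraries and at least 100 in each of the other 8. The SAMC effect averaged over diet was 1.92 ± 1.47 (log2, SE), with an unadjusted p of 0.221 and an edgeR adjusted p of 0.644. This pattern was singled out after the values were seen, and apart from these contrasts its relation to treatment was not tested.

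The first comparison, HFD against Control, asked what the high fat diet did without SAMC. None of the 55 members passed an edgeR adjusted p of 0.05, where 23 of all 15916 genes (0.145%) did. At an unadjusted p under 0.05 there were 6 members of 55 (10.9%), against 10.7% of all genes. Of these 6, 4 were lower, but the lower share of all genes at that p was not counted here. DESeq2 called 1 member against 2.07% of its genes. The libraries of HFD and Control did not overlap in 6 members, against 14.7% of all genes. Log2 fold changes were above 0 in 24 members and below 0 in 31, against 50.7% of all genes below 0, with a median of -0.14 where that of all genes was -0.0047. The shares of members called were near or below those of all genes.

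The member called by DESeq2 was LOC102546992 (chr7:36880045-36883467, minus strand), of no known function. It was at 25.7, 27.8 and 24.0 CPM in Control, 15, 14.1 and 22.4 in Control+SAMC, 4.01, 6.08 and 15.7 in HFD and 13.0, 14.5 and 7.57 in HFD+SAMC. Both high fat groups and Control+SAMC lay below every Control library, and HFD replicates 2 and 3 were lowest. The log2 fold change of HFD against Control was -1.59 ± 0.44 (SE), with an edgeR adjusted p of 0.226 and a DESeq2 adjusted p of 0.00997. Without HFD replicate 4 the edgeR value was -2.36 with an adjusted p of 0.0172. HFD replicates 2 and 3 are also low in Fga, and in the other 2 libraries low in Fga, Control replicate 2 and Control+SAMC replicate 1, LOC102546992 was at 27.8 and 15 CPM. The part of that state in the difference was not tested.

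LOC108351475 (chr7:71103208-71105690, plus strand) was at 74.4, 82.6 and 86.3 CPM in Control and at 61.8, 39.3 and 62.0 CPM in HFD. Its log2 fold change was -0.58 ± 0.18 (SE), with an edgeR adjusted p of 0.261. Higher in HFD without overlap, and with the smallest p among such members, were LOC102554630 (0.35 ± 0.15, adjusted p = 0.411), LOC108349824 (0.98 ± 0.49, adjusted p = 0.513) and LOC103691375 (0.52 ± 0.27, adjusted p = 0.514), all by edgeR. LOC103691375 was at 23.7, 13.5 and 21.8 CPM in Control and 29.4, 27.8 and 27.7 in HFD. In bulk RNA, fewer cells of a type and less RNA per cell cannot be told apart. All 13 macrophage markers had positive log2 fold changes in HFD, from 0.24 to 1.28. None of them passed, and 7 had an unadjusted p under 0.05. Of 12 hepatocyte markers 11 were below 0, with a list median of -0.44 (log2) and 6 at an unadjusted p under 0.05. All 7 erythroid markers were below 0, with a median of -0.85 and none at that p. Of 7 T and NK cell markers 6 were above 0 (median 0.75), and all 4 neutrophil markers were below 0 (median -1.34), none at that p. The other cell type lists held markers in both directions. No marker of any list passed, and their part in the values above was not tested. Marker lists are given for this comparison only.

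HFD+SAMC against HFD asked what SAMC did on the high fat diet. By edgeR 0 of 55 members passed, where 8 genes of all (0.0503%) did, and DESeq2 called 0 members, against 1.6% of its genes. At an unadjusted p under 0.05 there were 9 members (16.4%), against 10.6% of all genes, and 8 of the 9 were lower (14.5% of the members, against 5.34% of all genes). The groups did not overlap in 13 members, against 18.8% of all genes.

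LOC102552179 (chr6:93445847-93461551, minus strand) had the smallest adjusted p. It was at 12.8, 13.0 and 14.7 CPM in HFD and 10.4, 9.31 and 9.41 in HFD+SAMC, a log2 fold change of -0.48 ± 0.15 (SE) with an edgeR adjusted p of 0.301. LOC108349561, which overlaps Pepd on the same strand and may share its reads, was at 11.8, 8.43 and 12.9 CPM in HFD and 13.7, 17.9 and 15.8 in HFD+SAMC, or 0.51 ± 0.17 with an adjusted p of 0.330. LOC100910973 (chr1:227110936-227113844) was at 36.1, 32.0 and 24.8 CPM in HFD and 10.4, 12.5 and 18.3 in HFD+SAMC. That difference was -1.17 ± 0.41 with an edgeR adjusted p of 0.373, and Control, at 7.70, 25.4 and 15.3 CPM, overlapped both groups. LOC100912041 was at 11.3, 9.6 and 13 CPM in HFD and 13.4, 15.6 and 20.8 in HFD+SAMC, and LOC108352357 at 8.4, 11 and 5.44 CPM against 14.9, 16.9 and 12.8. Both were higher in HFD+SAMC without overlap, by 0.56 ± 0.33 and 0.84 ± 0.54 (log2, SE), with edgeR adjusted p-values of 0.591 and 0.626.

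Control+SAMC against Control asked what SAMC did on the normal diet. Again 0 of 55 members passed by edgeR, where 19 genes (0.119%) did, and DESeq2 called 1 member against 1.38% of its genes. There were 9 members at an unadjusted p under 0.05 (16.4%), against 9.78% of all genes, and 8 of the 9 were lower (14.5% of the members, against 4.61% of all genes). The lower share of all genes at that p was counted only for the SAMC comparisons within a diet. Lower members were also the larger part in several other contrasts, given below and above. Without that share, those counts of direction are a description and show no lean particular to the members. The groups did not overlap in 9 members, against 13.5% of all genes.

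The smallest adjusted p by edgeR was that of LOC108351475, at 59.4, 44.2 and 57.6 CPM in Control+SAMC against 74.4, 82.6 and 86.3 in Control, or -0.59 ± 0.18 (log2, SE) with an adjusted p of 0.290. LOC102550128 (chr10:34267256-34268812, minus strand) was the one called by DESeq2. It was at 17.0, 14.6 and 15.1 CPM in Control, 5.49, 1.21 and 8.28 in Control+SAMC, 14.7, 9.60 and 8.33 in HFD and 11.2, 7.62 and 10.4 in HFD+SAMC. Control+SAMC lay below every Control library, with replicate 2 lowest, while the high fat groups overlapped each other. The log2 fold change was -1.64 ± 0.50 (SE), with an edgeR adjusted p of 0.324 and a DESeq2 adjusted p of 0.0384.

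LOC108349824 (chr1:240561951-240565037, minus strand) was the only member higher in Control+SAMC without overlap. It was at 21.2, 25.1 and 26.4 CPM in Control, 119, 51.3 and 27.8 in Control+SAMC, 65.9, 36.9 and 40.5 in HFD and 85.6, 35.3 and 67.5 in HFD+SAMC. All 9 libraries of the other groups lay above the 3 Control libraries, and the spread within those groups was wide. Control+SAMC against Control gave 1.45 ± 0.49 (log2, SE), with an edgeR adjusted p of 0.379, and HFD+SAMC against Control, both of set 1, gave 1.37 ± 0.49 with an adjusted p of 0.290. LOC103691767 was lower, at 8.40, 9.14 and 9.67 CPM in Control+SAMC against 13.2, 9.99 and 14.6 in Control, or -0.48 ± 0.15 with an adjusted p of 0.341.

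**Figure D3:**
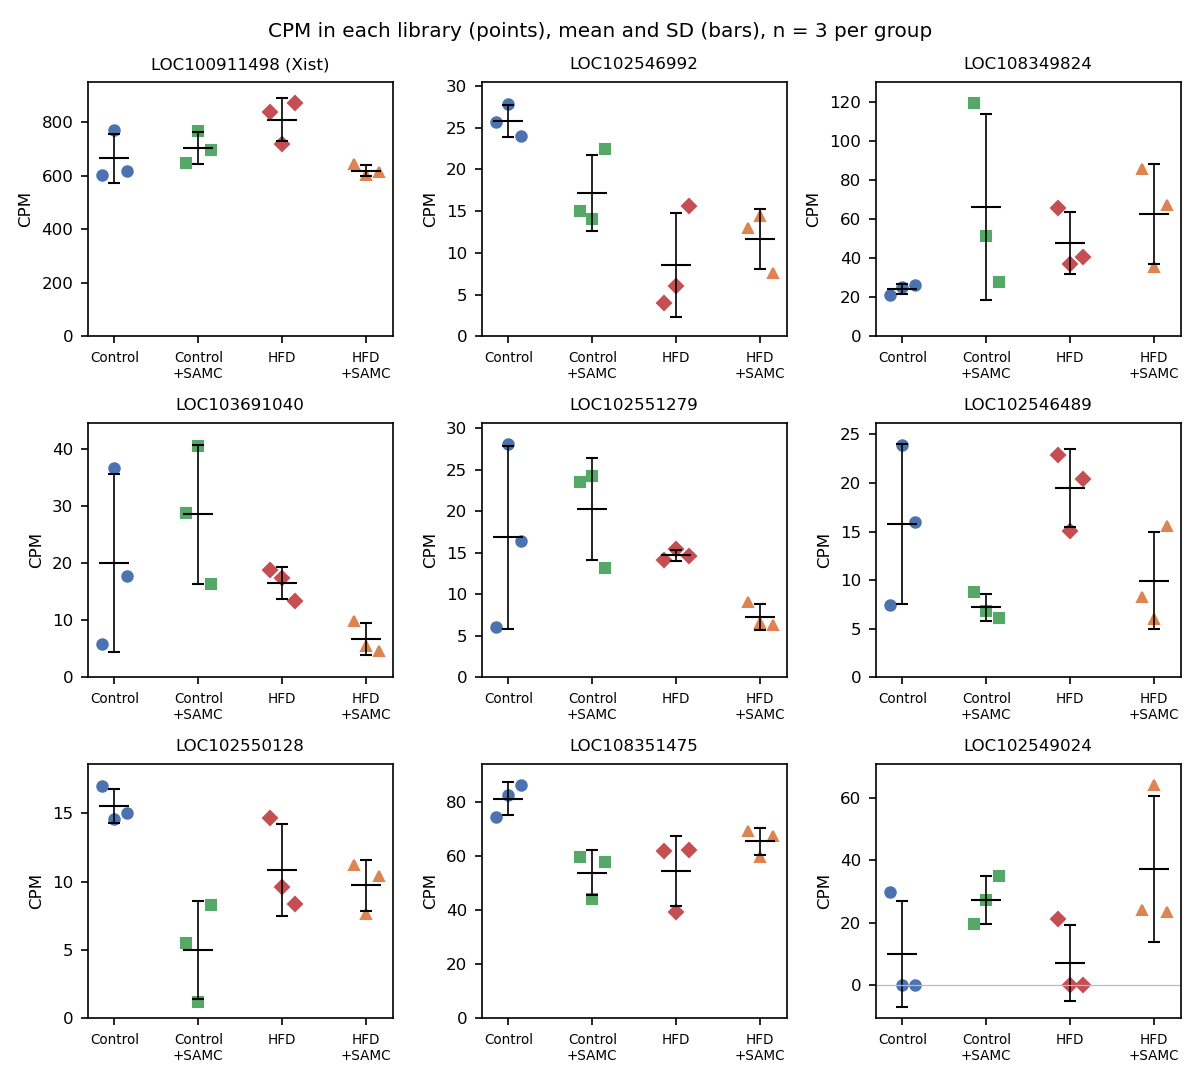
CPM of selected members in each library by group, with the mean and SD of each group of 3. LOC102546992 is low in the 2 HFD libraries at 4.01 and 6.08 CPM, LOC108349824 is lowest in the 3 Control libraries, and LOC102549024 is near 0 in 4 libraries without SAMC, where the SD bar reaches below 0.

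HFD+SAMC against Control+SAMC asked what the high fat diet did under SAMC. By edgeR 0 of 55 passed, where 10 genes (0.0628%) did, and DESeq2 called 2 members against 1.71% of its genes. At an unadjusted p under 0.05 there were 4 members (7.27%), against 10.9% of all genes. Of these 4, 3 were lower, with no lower share of all genes counted beside it. The groups did not overlap in 9 members, against 17.8% of all genes.

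Both members called by DESeq2 lie 11755 bases apart on opposite strands, and both overlap the vomeronasal receptor gene Vom2r7, which held 0 counts. LOC103691040 (chr1:77222499-77224343, plus strand) was at 5.79, 36.7 and 17.7 CPM in Control, 28.7, 40.6 and 16.4 in Control+SAMC, 18.8, 17.4 and 13.3 in HFD and 9.83, 5.5 and 4.63 in HFD+SAMC. HFD+SAMC lay below all libraries of HFD and of Control+SAMC, but Control replicate 1 was as low. The log2 fold change against Control+SAMC was -2.10 ± 0.59 (SE), with an edgeR adjusted p of 0.263 and a DESeq2 adjusted p of 0.00507. LOC102551279 (chr1:77177981-77210744, minus strand) was at 9.11, 6.55 and 6.27 CPM in HFD+SAMC and 23.5, 24.2 and 13.2 in Control+SAMC, or -1.47 ± 0.44, with adjusted p-values of 0.273 by edgeR and 0.0269 by DESeq2.

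Of the other members without overlap, LOC102552179 was lower in HFD+SAMC, at 10.4, 9.31 and 9.41 CPM against 11.1, 11.9 and 13.8 in Control+SAMC (-0.34 ± 0.15, edgeR adjusted p = 0.429). LOC108349561 was higher, at 13.7, 17.9 and 15.8 CPM against 12.1, 12.9 and 10.5 (0.41 ± 0.17, edgeR adjusted p = 0.411). LOC108351475 (0.28 ± 0.18, edgeR adjusted p = 0.608) and LOC103691767 (0.19 ± 0.15, edgeR adjusted p = 0.711) were also higher without overlap.

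The levels of LOC103691040 and LOC102551279 were correlated over the libraries, although within HFD the order of the 3 libraries differed between them. Over the 12 libraries r was 0.982 (permutation p = 2e-05, adjusted over 7 pairs of members within 50000 bases p = 7e-05) and rho was 0.916. It was 0.972 without the 2 farthest libraries, 0.992 within set 1 and 0.914 within set 2. LOC102546992 and LOC100912143, which start 116 bases apart on opposite strands, had r = 0.209 (permutation p = 0.511, adjusted p = 0.511) and rho = 0.566. Their r was 0.509 without the 2 farthest libraries, 0.845 within set 1 and -0.25 within set 2. Xist and LOC102554630 had r = 0.510 (permutation p = 0.0921, adjusted p = 0.129), with -0.25 in set 1 and 0.564 in set 2.

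**Figure D4:**
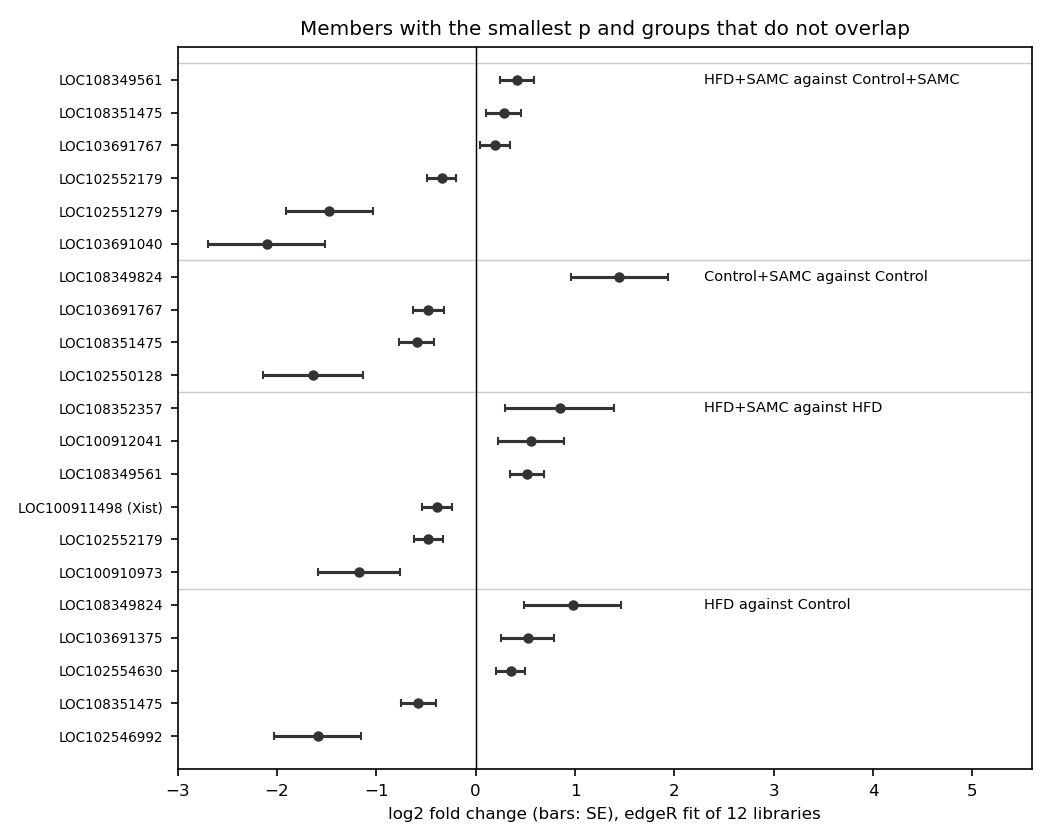
Log2 fold changes with SE bars from the edgeR fit, for the members with the smallest p and no overlap between groups in 4 comparisons. Values run from -2.10 for LOC103691040 to 1.45 for LOC108349824, and none of the members shown passed an adjusted p of 0.05.

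Averaged contrasts weigh both sets equally. The diet effect averaged over SAMC called 0 members by edgeR, against 67 genes (0.421%), with 7 members at an unadjusted p under 0.05 (12.7%) against 13.6% of all genes. Of the 7, 6 were lower, with no lower share of all genes counted beside it. DESeq2 called 2, LOC102546992 and LOC103691040, against 3.39% of its genes. LOC102546992 had -1.07 ± 0.30 (log2, SE) with an edgeR adjusted p of 0.170 and LOC103691040 -1.19 ± 0.41 with 0.244.

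The SAMC effect averaged over diet also called 0 by edgeR, against 35 genes (0.22%), with 8 members at an unadjusted p under 0.05 (14.5%) against 12.4%. Of the 8, 7 were lower, again without the lower share of all genes. DESeq2 called LOC102546489 and LOC102549305, against 2.75% of its genes. LOC102549305 (chr1:126695789-126710127 in the deposited table, plus strand) was at 14.7, 26.3 and 17.7 CPM in Control and 29.4, 16.9 and 14.8 in HFD. With SAMC it was at 16.4, 10.02 and 8.18 CPM on the normal diet and 12.6, 11.3 and 11.3 on the high fat diet. Only Control+SAMC replicate 1, at 16.4 CPM, reached the range of the libraries without SAMC. The averaged effect was -0.78 ± 0.22 (log2, SE), with adjusted p-values of 0.186 by edgeR and 0.0323 by DESeq2.

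LOC102546489 (chr13:93009262-93035524 in the deposited table, plus strand) was at 7.47, 23.9 and 15.9 CPM in Control and 22.9, 15 and 20.4 in HFD. It was at 8.74, 6.78 and 6.07 CPM in Control+SAMC and 8.24, 6.04 and 15.6 in HFD+SAMC. Apart from Control replicate 1, at 7.47 CPM, and HFD+SAMC replicate 3, at 15.6 CPM, the libraries with SAMC lay below those without it. The averaged effect was -1.05 ± 0.30 (log2, SE), with adjusted p-values of 0.191 by edgeR and 0.0153 by DESeq2.

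In 2 comparisons both groups belong to the same set. HFD+SAMC against Control called 0 members by edgeR, where 28 genes (0.176%) passed, and 0 by DESeq2, against 2.92% of its genes. There were 9 members at an unadjusted p under 0.05 (16.4%) against 12.6%, 17 log2 fold changes above 0 and 38 below (50.3% of all genes were below), and 13 members without overlap against 19.7% of all genes. Of the 9, 7 were lower, and the lower share of all genes at that p was not counted. The smallest adjusted p was that of LOC108350780 (chr4:168192070-168194824, plus strand), which overlaps the Wnt co-receptor gene Lrp6 on the opposite strand. It was at 25.2, 31.8 and 23.5 CPM in Control and 21.6, 16.7 and 16.6 in HFD+SAMC, or -0.55 ± 0.18 (log2, SE) with an edgeR adjusted p of 0.230.

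HFD against Control+SAMC called 0 by edgeR, where 58 genes (0.364%) passed, and 1 by DESeq2, against 3.57% of its genes. Here 8 members (14.5%) had an unadjusted p under 0.05, against 13% of all genes, and 10 did not overlap, against 17.1%. Of the 8, 2 were lower in HFD and 6 higher, with no such split counted over all genes. LOC102546489 was the DESeq2 call, with 1.43 ± 0.42 (log2, SE) and adjusted p-values of 0.176 by edgeR and 0.0184 by DESeq2. All 3 HFD libraries lay above the 3 Control+SAMC libraries.

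The interaction asks whether the SAMC effect differed between diets, and it coincides with the split between sets. It called 0 members by edgeR, where 23 genes (0.145%) passed, and 0 by DESeq2, against 0.807% of its genes, with 6 members at an unadjusted p under 0.05 (10.9%) against 7.41%. Of the 6, 3 were below 0, with no such split counted over all genes. LOC108351475 had the smallest p. It was at 74.4 to 86.3 CPM in Control and 59.7 to 69.2 in HFD+SAMC, the groups of set 1, and at 44.2 to 59.4 in Control+SAMC and 39.3 to 62.0 in HFD, those of set 2. Its interaction was 0.86 ± 0.25 (log2, SE), with an unadjusted p of 0.00472 and an edgeR adjusted p of 0.413. Outside the members, the signal recognition particle RNA Rn7sl1 passed in this contrast (3.25 ± 0.46, adjusted p = 0.0231), at 35.5 to 56.2 CPM in Control, 24.5 to 31.1 in HFD+SAMC, 6.17 to 15.4 in Control+SAMC and 8.12 to 15.9 in HFD. Rn7sl1 also passed in Control+SAMC against Control (-2.07 ± 0.33, edgeR adjusted p = 0.0415). In HFD against Control it did not pass (-1.88 ± 0.32, edgeR adjusted p = 0.0607), and both comparisons cross the sets. For LOC108351475 and Rn7sl1 the interaction and the set cannot be told apart.

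The members were next set beside the nearest protein coding gene of the table with a mean count of at least 100, a rule chosen after the data had been seen. Over the 12 libraries, 14 of 55 such pairs had a Pearson correlation of log2 CPM with a permutation p adjusted over the 55 pairs under 0.05, all of them positive, and 9 of the 14 also passed by Spearman. The 14 were 5 of 13 overlapping pairs, 5 of 11 within 5000 bases and 4 of 31 farther apart. How often unlinked gene pairs pass was not measured. The permutations took all 12 libraries as exchangeable, so differences shared by a group of libraries also enter these p-values. The median r was 0.55 in the 13 members that overlap their neighbour, 0.57 in the 11 within 5000 bases of it and -0.00092 in the 31 farther away, given as a description. Of all members, 20 overlap a protein coding row, 15 of these with one on the opposite strand. Where the counting did not use strand, reads of such overlapping genes would have been mixed.

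LOC108348833 (chr18:79408435-79413258, minus strand) overlaps Mbp, the gene of myelin basic protein, on the opposite strand and had r = 0.975 with it (permutation p = 1e-05, adjusted p = 0.000275, rho = 0.979). It was 0.936 without the 2 farthest libraries, 0.977 in set 1 and 0.991 in set 2. LOC108350780 with Lrp6 (r = 0.874, permutation p = 0.00018, adjusted p = 0.00248, rho = 0.804) and LOC102550637 with Sec22b, a vesicle trafficking protein (r = 0.865, permutation p = 0.0004, adjusted p = 0.00338, rho = 0.867), are of the same arrangement.

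Members that do not overlap their neighbour were also among the 14. LOC102551949, the second by RPKM, lies 38182 bases from Kng1, the liver gene of kininogen, and had r = 0.904 with it (permutation p = 5e-05, adjusted p = 0.000917, rho = 0.804). It was at 385, 189 and 243 CPM in Control, 151, 265 and 324 in Control+SAMC, 133, 103 and 223 in HFD and 202, 183 and 205 in HFD+SAMC. Kng1 was at 2532 to 3952 CPM in Control and 1380 to 2036 in HFD. The HFD range of LOC102551949 overlapped Control through HFD replicate 4, and HFD against Control was -0.83 ± 0.34 (log2, SE) with an edgeR adjusted p of 0.419.

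LOC108349824 lies 19196 bases from Aldh1a7, an aldehyde dehydrogenase, on the same strand, with r = 0.851 (permutation p = 0.00043, adjusted p = 0.00338, rho = 0.881), 0.892 in set 1 and 0.793 in set 2. Aldh1a7 was likewise lowest in Control, at 3.18, 5.31 and 5.18 CPM. The longest member, LOC103691897, lies 1502 bases from Hao1, the hydroxyacid oxidase of liver peroxisomes, with r = 0.855 (permutation p = 0.00025, adjusted p = 0.00275, rho = 0.916). LOC102549203, 30 bases from the hepatocyte transcription factor gene Onecut1, had r = 0.728 (permutation p = 0.00699, adjusted p = 0.0296), while its rho of 0.594 did not pass (adjusted p = 0.143). LOC103691767 and Fpgs, the enzyme that adds glutamates to folate, had r = 0.861 (permutation p = 0.00201, adjusted p = 0.0138). Their rho was 0.888 (permutation p adjusted over the pairs 0.00385). The r fell to 0.426 without the 2 farthest libraries and was 0.966 within set 1 and 0.114 within set 2, so its size depended on the libraries used. The value of LOC103693047 with Rup2, r = 0.954 (permutation p = 1e-05, adjusted p = 0.000275), may hold reads shared by the 2 rows.

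**Figure D5:**
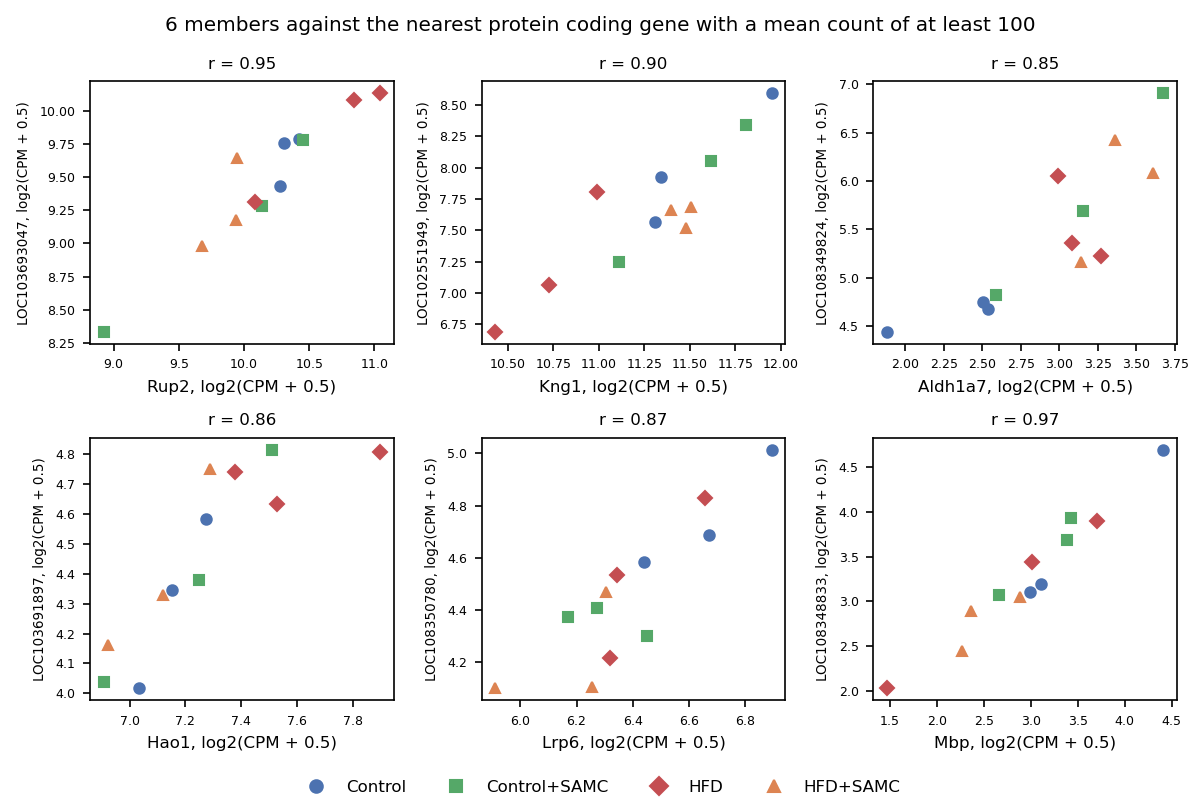
Log2(CPM + 0.5) of 6 members against their nearest protein coding gene with a mean count of at least 100, 1 point per library, coloured by group. Both values rise together in each panel, with scatter within and between groups, and r runs from 0.851 for LOC108349824 and Aldh1a7 to 0.975 for LOC108348833 and Mbp.

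Proteins and RNAs known to work with such RNAs were counted from lists. Of 15 tested paraspeckle proteins, 14 nuclear speckle proteins and 7 proteins of small nucleolar ribonucleoproteins, none passed in any of the 9 contrasts by edgeR. In HFD against Control, 2 of 15, 0 of 14 and 0 of 7 had an unadjusted p under 0.05, against 10.7% of all genes, and the list medians were -0.021, -0.044 and -0.27 (log2), where all genes had -0.0047. In HFD+SAMC against HFD these counts were 2, 1 and 0, against 10.6% of all genes, with medians of -0.062, -0.15 and 0.064, and all genes had 0.0034. Among named noncoding RNAs below the limit, H19, an imprinted RNA of fetal liver and muscle, had a mean of 453 counts, with 5338 counts in HFD+SAMC replicate 3, the library with muscle RNA, and at most 34 in any other.

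Several of the remaining members lay in narrow ranges. LOC100912557 (Atp5mpl) was at 33.3 to 46.8 CPM over the 12 libraries, LOC102549675 at 29.4 to 39.1 and ENSRNOG00000059601.1 at 24.6 to 38.0. LOC100911029, described in the table as like a NudC domain protein, was at 23.5 to 32.5 CPM. At the low end, LOC108351251 was at 7.33 to 13.9 CPM, LOC102551027 at 6.97 to 14 and LOC108353172 at 3.78 to 15.5. The last overlaps the ubiquitin ligase gene Nedd4l on the opposite strand. Wider ranges were found for LOC102549203, at 18.8 to 117 CPM, and LOC103691380, at 4.86 to 47 CPM, with low and high libraries in most groups. LOC108348833 ranged from 3.59 to 25.4 CPM, LOC103691897 from 15.7 to 27.7, LOC102550637 from 13.8 to 22.5 and LOC100912143 from 7.37 to 16.2. The other 12 members lay between 5.4 and 28 CPM, and none of them was called in any contrast by edgeR or DESeq2.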

How the data were processed

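Ribosomal RNA was removed with Ribo-Zero, libraries were made with a NEBNext Ultra kit and read as pairs of 150 bases, per the labels' protocols. From these the authors made the deposited read count of each gene, with HISAT2 as the aligner and HTSeq as the counter, as the labels' protocols say. Trimmomatic 0.36 and FastQC are named in the submitters' processing notes. No source used here names the build, the annotation release or the strand setting, so coordinates of the deposited table carry no build. The deposited RPKM could be recomputed from count, listed length and total to a relative tolerance of 1e-06, except for RGD1562465. Gene types, including lncRNA and lincRNA, are the authors' deposited annotation.

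All 40154 genes entered filterByExpr, which kept 15916, under edgeR 4.0.16 and R 4.3.3. TMM factors scaled the libraries, which were fitted in 1 robust quasi-likelihood model with 8 residual degrees of freedom, two-sided, adjusted by Benjamini-Hochberg over all genes tested, with a threshold of 0.05. DESeq2 1.42.0 was the other tool. CPM uses TMM-scaled library sizes. On simulated data for HFD against Control (15610 genes), the test recovered 52% of 100 log2 changes of 1 and 94% of 100 changes of 2, with 7 false calls in all. Correlations used log2(CPM + 0.5) and 100000 permutations. Values were given for the members highest in mean RPKM and in mean count, those with an established symbol, those beside the limit, those most and least variable, and, in 4 comparisons, up to 3 members each way with the smallest p and groups that do not overlap. Members and lists were chosen with earlier results of these data known, and the members of the averaged and same-set comparisons, the neighbour pairs and the low-count pattern of LOC102549024 were described after their values were seen.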

Additional observations from a re-analysis of the deposited data

How the results depend on the processing

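Each contrast was refitted with DESeq2 size factors in edgeR, with TMM factors from coding rows, by DESeq2, without a filter, with a mean count of at least 50, with only the 2 groups compared, with a replicate block, without each library in turn and without the 4 libraries lowest in Fga together, which leaves HFD with 1 library that is assumed to vary like the others. The fit of only 2 groups was not run for the averaged contrasts and the interaction, which need all 4. Every edgeR fit of the 12 libraries without a block called 0 members, as reported. The edgeR fits of only the 2 groups, which used the libraries of those groups alone, also called 0, with 1 exception. That was HFD against Control+SAMC, which called 1 (LOC102546489, 1.43, edgeR adjusted p = 0.0413). DESeq2 called 1 member in HFD against Control, 1 in Control+SAMC against Control, 2 in HFD+SAMC against Control+SAMC, 2 for diet, 2 for SAMC, 1 in HFD against Control+SAMC and 0 in the other 3 contrasts. Leaving out 1 library gave 0 to 1 members in HFD against Control, for diet, in HFD+SAMC against Control and in HFD against Control+SAMC, and 0 in the other contrasts. Without HFD replicate 4, LOC102546992 passed in HFD against Control (-2.36, adjusted p = 0.0172), for diet (-1.46, 0.0118) and in HFD against Control+SAMC (-1.77, 0.0411), all by edgeR. Without Control replicate 1, LOC102551279 passed for diet (-1.04, edgeR adjusted p = 0.0379) and in HFD+SAMC against Control (-1.62, 0.0480). The replicate block, with the number in the title as a term, called 1 member for diet (LOC102546992, -1.46, edgeR adjusted p = 0.0487) and 0 elsewhere; libraries of the same number correlated from -0.22 to 0.25, so the numbers did not pair the libraries. Of 420 refits of the 21 values named by contrast, 415 kept their direction and their side of the threshold and 5 passed it in the same direction. The cause of these differences between fits was not tested. Over all genes, edgeR called 8 to 67 per contrast and DESeq2 128 to 556. Counts were deep, with at least 100 in every library for 53 of 55 members, and the 3 libraries per group limit the precision more.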
